A study of Mus musculus with 12 samples.

Results

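The 10 genes described here encode enzymes of mitochondrial fatty acid beta-oxidation and were chosen by symbol: Cpt1b, Cpt2, Acadl, Acadm, Acadvl, Acads, Hadha, Hadhb, Hadh and Etfdh. All 10 were found, each once, among the 22276 gene symbols of the expression table. RNA-seq levels were compared in 4 organs, namely white fat (WAT), brown fat (BAT), liver and quadriceps muscle, of male C57BL/6J mice aged 17 weeks. Mice in the NCD-veh group ate a normal chow diet and received vehicle, and those in the HFD-veh group ate a high-fat diet from the age of 8 weeks and received the same vehicle. Mice in the HFD-ncls group ate the high-fat diet and received narciclasine (ncls), a plant alkaloid, at 1 mg/kg from the age of 10 weeks. Ncls and vehicle (hydroxypropyl cyclodextrin in solution) were given weekly by oral gavage for 7 weeks. Each of the 12 combinations of organ and group was 1 library, and how many mice each library stands for is not given in the sources used here. With 1 library per group there is no spread between animals, so every difference below describes these libraries and carries no p-value.

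Beta-oxidation shortens fatty acids in the mitochondrial matrix and delivers acetyl-CoA and reduced electron carriers. Long-chain acyl groups enter through the carnitine shuttle, and each turn of the cycle then uses an acyl-CoA dehydrogenase matched to chain length, a hydratase, a hydroxyacyl-CoA dehydrogenase and a thiolase. Brown fat burns fatty acids for heat, skeletal muscle for contraction, and liver during fasting, and genes of the pathway are known targets of the PPAR and estrogen-related nuclear receptors.

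Levels are given as FPKM, the number of fragments on a transcript scaled to its length and to all mapped fragments. Where 3 values follow each other for an organ, they stand for the NCD-veh library, the HFD-veh library and the HFD-ncls library in this order. The depth of the libraries is not stated in the sources used here. The smallest steps between low FPKM values corresponded to about 18600000 to 26200000 fragments per library, which places about 1200 (Acads) to 8900 (Hadha) fragments behind each value of the 10 genes in muscle. These numbers are approximate, and no interval rests on them. Differences are log2(FPKM + 0.1) of one library minus another, for genes with at least 1 FPKM in at least 1 of the libraries compared, and a gene was counted as changed in level past 1.4-fold at a log2 difference beyond 0.49 in either direction.

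Regions before the transcription start are shown for the member with the largest muscle difference (Acadl), for the pair of genes that start next to each other (Hadhb, beside Hadha) and for both members that hold a nuclear receptor half-site (Acadm and Acadvl). RefSeq windows on build GRCm38.p6 were used for 9 of the 10 genes; Cpt1b was not among them. Each line gives the 250 bases before the start, 5′ to 3′ on the strand of the gene. Capitals mark GGGCGG, the core of a GC box, in Acadl and Hadhb, and AGGTCA, the nuclear receptor half-site, in Acadm and Acadvl, on either strand.
Acadl, chr1:66863310-66863559, minus strand: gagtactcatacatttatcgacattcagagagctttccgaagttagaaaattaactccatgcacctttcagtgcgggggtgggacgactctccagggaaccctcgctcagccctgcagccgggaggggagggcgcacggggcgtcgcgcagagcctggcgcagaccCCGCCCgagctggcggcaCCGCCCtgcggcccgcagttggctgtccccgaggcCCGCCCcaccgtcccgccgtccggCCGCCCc
Hadhb, chr5:30155003-30155252, plus strand: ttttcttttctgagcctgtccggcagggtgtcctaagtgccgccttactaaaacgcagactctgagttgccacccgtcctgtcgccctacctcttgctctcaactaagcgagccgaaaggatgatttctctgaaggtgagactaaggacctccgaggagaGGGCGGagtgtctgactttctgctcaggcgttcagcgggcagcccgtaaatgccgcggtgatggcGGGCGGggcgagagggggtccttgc
Acadm, chr3:153944644-153944893, minus strand: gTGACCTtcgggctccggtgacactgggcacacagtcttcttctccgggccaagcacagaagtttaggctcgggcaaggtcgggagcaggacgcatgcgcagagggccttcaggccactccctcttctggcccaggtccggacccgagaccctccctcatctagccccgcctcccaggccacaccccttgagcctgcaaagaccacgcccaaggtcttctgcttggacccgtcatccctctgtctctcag
Acadvl, chr11:70015429-70015678, minus strand: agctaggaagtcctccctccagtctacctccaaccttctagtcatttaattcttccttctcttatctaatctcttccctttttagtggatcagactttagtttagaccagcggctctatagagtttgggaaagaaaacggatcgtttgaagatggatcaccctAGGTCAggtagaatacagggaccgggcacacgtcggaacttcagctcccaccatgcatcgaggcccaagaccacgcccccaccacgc
Matches to AGGTCA were found in 2 of the 9 windows and in 14% of all 32851 windows of the same length. GGGCGG was found in 6 of the 9 windows and in 32.7% of all windows. The longer TCAAGGTCA, which holds the half-site and is the usual form of an estrogen-related receptor site, was found in 0 of the 9 and in 0.387% of all windows. The starts of Hadha and Hadhb lay 273 bases apart on opposite strands, so that their windows shared 228 bases. The GGGCGG match at -188 from the Hadha start is the same site as the match at -90 from the Hadhb start. It was counted in both windows. These matches describe letters only.

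BAT held the highest level of every member. All 3 BAT libraries lay above the other 9 libraries for 10 of the 10 genes, against 6.16% of all 13648 genes with at least 1 FPKM in any library. The mean BAT level exceeded the mean muscle level by 2.12 times for Cpt1b and by 8.67 times for Hadh, the lowest and the highest ratio of the 10. All 3 muscle libraries lay below the other 9 for 4 of the genes (Cpt2, Acadm, Acads and Hadh), against 26.6% of all genes. Together the 10 genes made up 1.28%, 1.61% and 1.60% of all FPKM in BAT, and between 0.159% and 0.228% in each of the other 9.

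**Figure D1:**
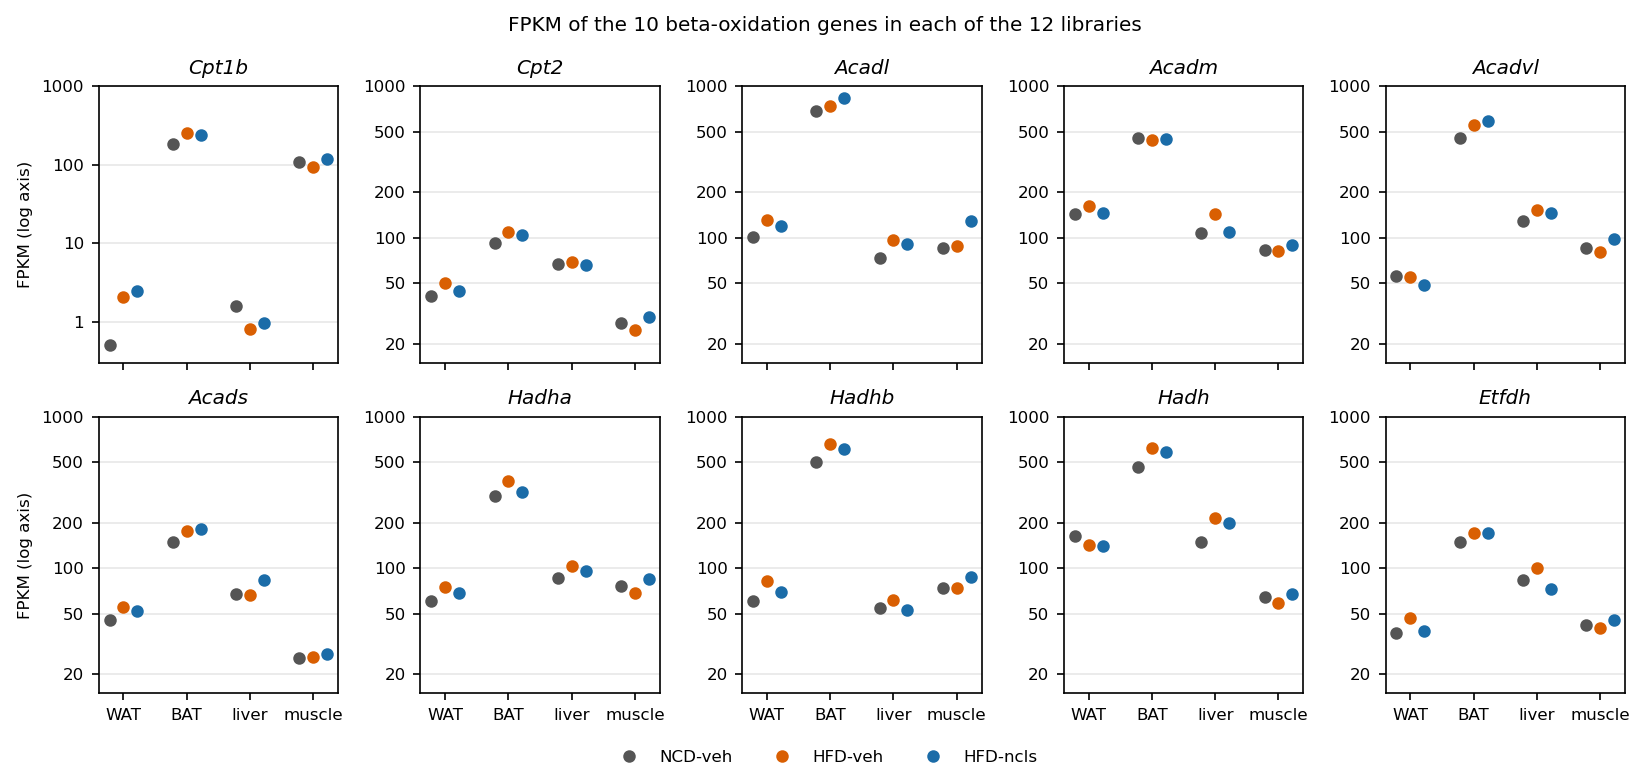
Each panel plots the FPKM of 1 gene (log axis, with a lower limit of its own for Cpt1b) in the 4 organs, with 1 point per library coloured by group. For all 10 genes the BAT points lie above those of the other organs, and Cpt1b alone among them falls to about 1 FPKM in WAT and liver.

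The carnitine shuttle opens the pathway. Cpt1b, the muscle form of carnitine palmitoyltransferase 1 and its rate-setting step, was at 184, 250 and 239 FPKM in BAT and at 106, 91.7 and 119 FPKM in muscle. Its level was 0.501, 2.04 and 2.47 FPKM in WAT and 1.58, 0.803 and 0.945 FPKM in liver. BAT and muscle thus stood apart from each other and from WAT and liver, while the WAT and liver libraries overlapped. Cpt1a, the liver form and not one of the 10 genes, ran the other way, at 83.4, 112 and 93.5 FPKM in liver, 28.2, 42.1 and 36.3 FPKM in WAT, and between 1.49 and 4.08 FPKM in BAT and muscle. Cpt1b therefore made up 97.6% to 98.9% of the summed Cpt1a and Cpt1b FPKM in BAT and muscle, 1.75% to 6.36% in WAT and 0.709% to 1.86% in liver. On mm9 the GENCODE gene Cpt1b (chr15:89246836-89256294, minus strand) lies wholly inside the span annotated for Chkb (chr15:89246836-89260339, minus strand), a choline kinase gene, so reads could be split between them and the Cpt1b level is uncertain to that degree. Chkb was at 56.3 to 64.7 FPKM in BAT and at 7.48 to 11.1 FPKM in muscle. Cpt2 (chr4:107576586-107596215, minus strand), which regenerates acyl-CoA on the inner side of the membrane, was at 91.5, 110 and 104 FPKM in BAT, 66.8, 69.6 and 66.0 in liver, 41.0, 50.3 and 44.6 in WAT, and 27.2, 24.6 and 30.0 in muscle. No libraries of neighbouring organs overlapped in that order.

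The acyl-CoA dehydrogenases differ in the chain length they accept. Acadvl (chr11:69823685-69828913, minus strand), for very long chains, was at 456, 556 and 584 FPKM in BAT, 130, 152 and 146 in liver, 85.3, 80.6 and 97.8 in muscle, and 56.0, 55.1 and 48.4 in WAT, with no overlap between organs. Acadl (chr1:66877413-66909851, minus strand), for long chains, was at 687, 740 and 835 FPKM in BAT, 101, 131 and 119 in WAT, 85.9, 87.6 and 129 in muscle, and 73.1, 96.3 and 91.4 in liver. Below BAT, the organs overlapped for Acadl, and their order by mean level does not hold library by library. The Acadl to Acadvl ratio of FPKM was 1.81 to 2.47 in WAT, 1.33 to 1.50 in BAT and 0.564 to 0.632 in liver, with no overlap between these organs. In muscle it was 1.01, 1.09 and 1.32, below both adipose tissues and above liver in each library.

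Acadm (chr3:153585321-153607596, minus strand), for medium chains, was at 455, 442 and 448 FPKM in BAT, 144, 160 and 145 in WAT, 108, 144 and 108 in liver, and 82.8, 82.1 and 88.9 in muscle. Its highest and lowest BAT library differed by 1.03 times, the narrowest spread of any member in any organ. Acads (chr5:115560308-115569355, minus strand), for short chains, was at 150, 175 and 183 FPKM in BAT, 67.5, 66.6 and 83.8 in liver, 46.0, 55.8 and 52.7 in WAT, and 25.5, 25.9 and 27.4 in muscle. The organs kept apart for both genes, though the lowest WAT and the highest liver library of Acadm both rounded to 144 FPKM.

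Hadha and Hadhb encode the alpha and beta subunits of the mitochondrial trifunctional protein, which carries out the last 3 steps on long chains. On mm9 Hadha (chr5:30444841-30481702, minus strand) and Hadhb (chr5:30481788-30511133, plus strand) are arranged head to head. Hadha was at 302, 376 and 320 FPKM in BAT, 86.0, 104 and 96.3 in liver, 76.3, 68.7 and 85.6 in muscle, and 60.8, 75.2 and 68.4 in WAT. Hadhb was at 501, 659 and 614 FPKM in BAT, 74.2, 73.9 and 88.5 in muscle, 61.3, 82.1 and 70.0 in WAT, and 55.3, 62.0 and 53.3 in liver. Liver was thus second for the alpha subunit and last by mean level for the beta subunit, with muscle and WAT overlapping for both subunits and WAT and liver overlapping for Hadhb. The Hadhb to Hadha ratio was 1.66 to 1.91 in BAT, 0.972 to 1.08 in muscle, 1.01 to 1.09 in WAT and 0.553 to 0.643 in liver. BAT and liver stood apart from each other and from the other organs, and muscle and WAT overlapped.

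**Figure D2:**
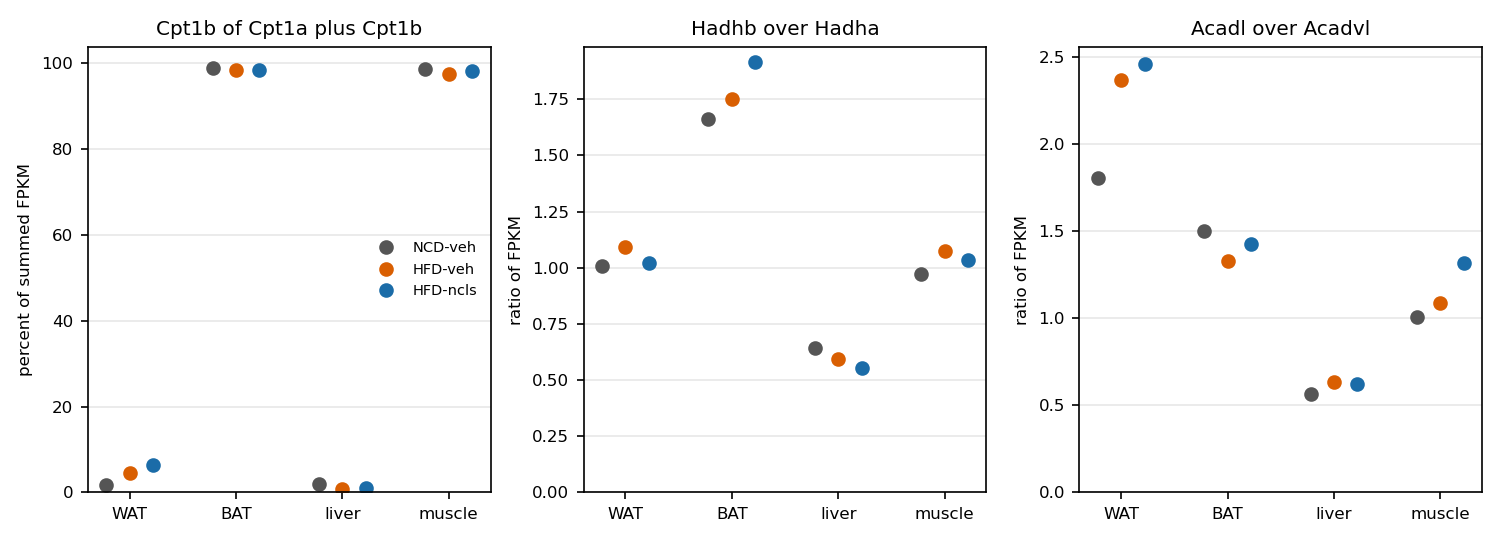
The panels plot, for each of the 12 libraries, the percent of Cpt1b in the summed Cpt1a and Cpt1b FPKM (left) and the FPKM ratios Hadhb over Hadha (centre) and Acadl over Acadvl (right), by organ and coloured by group. BAT and muscle share a Cpt1b percent above 97, and the Hadhb to Hadha ratio is above 1.6 in the BAT libraries and below 0.7 in the liver libraries.

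Hadh (chr3:130936337-130975019, minus strand), the soluble hydroxyacyl-CoA dehydrogenase for medium and short chains, was at 465, 621 and 583 FPKM in BAT, 149, 215 and 198 in liver, 164, 142 and 142 in WAT, and 65.1, 59.6 and 67.9 in muscle. Liver and WAT overlapped. Etfdh (chr3:79407710-79432785, minus strand), which passes the electrons of the acyl-CoA dehydrogenases to ubiquinone, was at 148, 172 and 171 FPKM in BAT, 84.4, 100.1 and 73.7 in liver, 42.3, 40.7 and 45.9 in muscle, and 37.8, 46.8 and 38.7 in WAT. Muscle and WAT overlapped.

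The most abundant member differed between organs. Acadl led in each BAT library, Hadh in each liver library and in NCD-veh WAT, and Acadm in both HFD WAT libraries. Cpt1b led in NCD-veh and HFD-veh muscle, where it made up 15.8% and 14.4% of the summed FPKM of the 10 genes, and Acadl led in HFD-ncls muscle with 16.6%. Over all 12 libraries the 5 other genes whose log2 profile lay closest to the mean profile of the 10 were Cox6b1, Xrcc6, Ndufa1, Cox7a2 and Cox4i1, at root-mean-square distances of 0.212 to 0.279. The distance of Cpt1b from that same mean was 2.83. The other 9 members lay at 0.228 to 0.744, a distance to a mean in which each of them takes part.

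In muscle, every member was higher in the HFD-ncls library than in both vehicle libraries on the FPKM as deposited. With the libraries rescaled by their median ratio, 10 of 10 were still above HFD-veh and 9 of 10 above NCD-veh, Hadh being the exception. The library from HFD-ncls was the highest of the 3 for 10 of 10 members, against 42.7% of all genes. The difference from HFD-veh was above 0 for 10 of 10, against 55.5% of the 9694 genes tested, with a median log2 difference of 0.27 among the members and 0.04 over all genes. Only 1 member, Acadl, was past 1.4-fold higher, and 0 were past 1.4-fold lower, against 8.46% and 5.48% of all genes. In either direction that is 13.9% of all genes, and 9.26% of those with at least 5 FPKM, a level that every member exceeded in muscle. The members thus lay on one side of 0 with sizes that were mostly small. Acadl and Cpt1b are named in the study for a rise in these same libraries, so their direction here is no independent evidence. The study also reports their rise in muscle by qRT-PCR, which was not examined here.

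The members ordered by their muscle difference between HFD-ncls and HFD-veh began with Acadl, at a log2 difference of 0.56 (1.47-fold), higher than 93.7% of all genes tested. Cpt1b followed at 0.37, Hadha at 0.32, Cpt2 and Acadvl at 0.28 each, and Hadhb at 0.26. These 6 genes handle long-chain substrates. Hadh was at 0.19, Etfdh at 0.17, Acadm at 0.11 and Acads at 0.08, the last at the 56.5th percentile of all genes. Among the cycle dehydrogenases within the 10 members, the 3 smallest differences thus belonged to the enzymes for medium and short chains (Hadh, Acadm and Acads). That order covers only the genes chosen here, was read from 1 library per group and was not tested. Genes outside the 10 went both ways. Acaa2, a matrix thiolase apart from the trifunctional protein, was at 0.34, above Hadha, and Echs1, a short-chain hydratase, at 0.12. The middle 50% of all genes lay between -0.14 and 0.24, and 4 of the 10 members fell within that range.

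Between HFD-veh and NCD-veh muscle the members differed little. The log2 difference was above 0 for 2 of 10, against 55.1% of all 9587 genes tested, and ran from -0.21 for Cpt1b to 0.03 for Acadl. The median was -0.07 among the members and 0.03 over all genes. None was past 1.4-fold, where 7.74% of all genes were higher and 5.52% lower. HFD-veh was the lowest of the 3 muscle libraries for 8 of the 10 members, a count for which no share over all genes was taken. The exceptions were Acadl and Acads, whose NCD-veh levels were the lowest. The count above 0 fell from 2 to 0 with the median ratio rescaling and to 1 with the share of liver or WAT subtracted, so the sign of such small differences depends on the scaling. Both comparisons use the same HFD-veh library, so a low value in it moves them in opposite directions.

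A comparison that does not use HFD-veh set HFD-ncls against NCD-veh muscle. Its HFD-ncls library also enters the HFD-ncls to HFD-veh comparison, so a high value in it raises both. These libraries differ in both diet and treatment, which cannot be told apart. The difference was above 0 for 10 of 10 members, against 63.7% of all genes, with a median of 0.15 among the members and 0.08 over all genes. With the median ratio rescaling it was above 0 for 9 of 10, with medians of 0.08 and 0.01. Acadl was again the only member past 1.4-fold higher, at 0.59, against 6.39% of all genes. Hadhb was next at 0.25, and the smallest difference was 0.06 for Hadh.

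**Figure D3:**
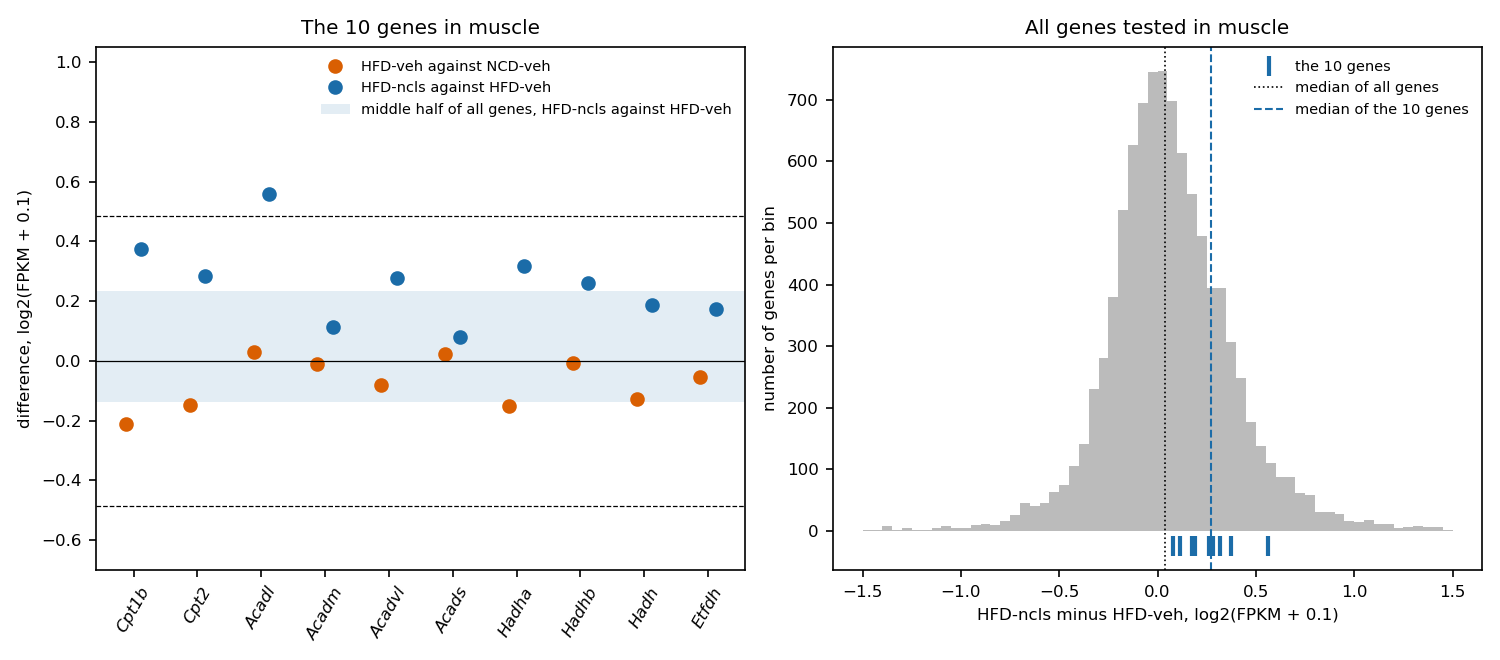
The left panel plots the log2 difference of each of the 10 genes in muscle for HFD-veh against NCD-veh and for HFD-ncls against HFD-veh, with dashed lines at 1.4-fold and a band for the middle 50% of all genes in the latter comparison. The right panel is a histogram of that comparison over all genes tested (243 genes beyond the axis limits not drawn), with the 10 genes as ticks, all right of 0 and with a median of 0.27 against 0.04 for all genes.

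Markers of other cells and fibres also moved between the muscle libraries. In a list of 6 slow and oxidative fibre genes, 6 of 6 were past 1.4-fold lower in HFD-veh than in NCD-veh and 6 of 6 were past 1.4-fold higher in the HFD-ncls library than in that HFD-veh library. Against NCD-veh, HFD-ncls was above 0 for 3 of 6 and past 1.4-fold higher for 2 of 6. Their summed level was 44.4, 6.94 and 47.5 FPKM, so that HFD-veh muscle stood lowest. Myh7, the slow myosin heavy chain, was at 13.4, 5.11 and 11.7 FPKM and the slow light chain gene Myl2 at 10.5, 0.735 and 16.2 FPKM. The study chose these genes on the same libraries, so the list is no independent evidence of its direction. Slow fibres are known to be richer in beta-oxidation enzymes than fast ones. The 6 genes stood beside sums of 102118, 101104 and 98535 FPKM for 10 skeletal muscle genes. That list holds Myh1 and Tnni2, which the study names as fast-fibre genes, so it is no fibre-neutral reference. Myh1 was at 957, 683 and 936 FPKM and Tnni2 at 8651, 8834 and 8055 FPKM. Myh2, the myosin of type IIa fibres, which the study counts as oxidative, was in the same list at 552, 487 and 609 FPKM. Whether the fibres in the tissue piece had a part in the levels of the 10 genes was not tested, and in bulk tissue a different number of such fibres and a different amount of RNA per fibre cannot be told apart.

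Liver transcripts were present in HFD-veh muscle. The 10 liver markers summed to 488 FPKM there, with 10 of 10 at 1 FPKM or more, and to 1.66 and 0.833 FPKM in NCD-veh and HFD-ncls muscle, with 0 of 10 at 1 FPKM. Over 261 liver-enriched genes, the HFD-veh muscle library held a median of 0.675% of the liver level. That share of the liver level of the members came to at most 1.45 FPKM, and to at most 2.44% of the muscle level of a member (Hadh). The 8 adipocyte markers summed to 348, 395 and 387 FPKM in muscle, and a median of 0.498%, 1.63% and 0.855% of their WAT level was found there. That share of the WAT level came to at most 3.87% of a member's muscle level, again for Hadh in HFD-veh. With either share subtracted, 10 of 10 members remained higher in the HFD-ncls than in the HFD-veh muscle library. That outcome was fixed beforehand, since both shares were larger in HFD-veh, which subtraction therefore lowered more. The liver share of HFD-ncls muscle was 0.00499%. The part of such RNA in the differences was not tested. Of the defining brown fat genes, Ucp1 was at 0.179, 0 and 0.0247 FPKM in muscle and Cidea at 0.690, 0.109 and 0.667 FPKM. Of 6 macrophage markers, 3 reached 1 FPKM in each muscle library, with sums of 17.4, 19.7 and 27.4 FPKM, and their part in the results was not tested.

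Other genes of fatty acid metabolism were read from lists of the same kind. Of 15 further mitochondrial beta-oxidation genes, 12 were higher and 3 lower in muscle with ncls than without it on the high-fat diet, with a median log2 difference of 0.20, and 2 were past 1.4-fold higher. These were Acot2, a mitochondrial acyl-CoA thioesterase, at 8.66, 5.13 and 13.6 FPKM, and Acad10, an acyl-CoA dehydrogenase family member, at 1.60, 1.30 and 1.91 FPKM. Among 17 TCA cycle genes, which oxidise the acetyl-CoA that beta-oxidation supplies, 10 were higher and 7 lower, with a median of 0.05 and 0 past 1.4-fold in either direction. The largest TCA differences were 0.15 for Dlst and -0.15 for Sdhc. The 10 members thus had a larger median than the TCA list, a comparison of values without a test.

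Of 4 other carnitine shuttle genes at 1 FPKM or more, 3 were above 0 in this comparison and 0 were past 1.4-fold. Slc25a20, the carnitine-acylcarnitine exchanger of the inner membrane, was at 29.5, 28.5 and 35.4 FPKM, and Crat, carnitine acetyltransferase, at 95.1, 99.7 and 104 FPKM. Among 3 genes of malonyl-CoA, the inhibitor of carnitine palmitoyltransferase 1, the differences were above 0 for 3 of 3. Acacb, which makes malonyl-CoA at mitochondria, was at 45.7, 33.0 and 52.0 FPKM, and Mlycd, which breaks it down, at 32.7, 26.2 and 44.9 FPKM. The maker and the remover of the inhibitor were thus both past 1.4-fold higher with ncls on the high-fat diet.

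Genes of fatty acid uptake and activation spread more widely than the 10 members. Of 12 tested, 9 were higher and 3 lower in the same comparison, 4 past 1.4-fold higher (Cd36, Fabp3, Slc27a1 and Acss1) and 2 past 1.4-fold lower (Slc27a2 and Acsl5). Acss1, a mitochondrial acetyl-CoA synthetase, was at 3.54, 2.86 and 5.74 FPKM. Slc27a2, a very-long-chain acyl-CoA synthetase of liver, was at 0.0175, 3.44 and 0.0509 FPKM in muscle beside 482 to 547 FPKM in liver, in step with the liver markers above. Of 15 peroxisomal beta-oxidation genes, 7 were higher and 8 lower, with a median of -0.03, 0 past 1.4-fold higher and 2 past 1.4-fold lower. These were Acaa1b at 1.91, 7.70 and 2.43 FPKM and Decr2 at 1.01, 2.11 and 1.25 FPKM, and both were far higher in liver, from 351 and from 85.5 FPKM.

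Larger differences than those of the 10 members were found among genes that respond to fasting and fatty acids. Of 7 tested, 5 (Pdk4, Ucp3, Angptl4, Plin5 and Lpl) were past 1.4-fold lower in HFD-veh than in NCD-veh muscle and past 1.4-fold higher in the treated library than in HFD-veh, with medians of -0.64 and 0.85. Pdk4, the kinase that restrains pyruvate oxidation, was at 404, 122 and 415 FPKM. Angptl4, an inhibitor of lipoprotein lipase, was at 6.47, 4.12 and 8.40 FPKM. For both genes the HFD-veh library was the lowest, and both comparisons share it. Of 13 regulators of the pathway tested (nuclear receptors and their cofactors among them), 7 were higher and 6 lower with ncls on the high-fat diet, with a median of 0.02. Past 1.4-fold were Nrip1, a nuclear receptor corepressor, at 1.58, 0.745 and 2.31 FPKM, and Rxrg, a retinoid X receptor, at 31.4, 39.3 and 27.4 FPKM. The study reports PPARα and PGC1α as higher with ncls in high-fat diet muscle, by qRT-PCR and RNA-seq. In these libraries Ppara was at 1.20, 1.23 and 1.37 FPKM and Ppargc1a at 3.51, 3.80 and 2.98 FPKM, neither past 1.4-fold.

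**Figure D4:**
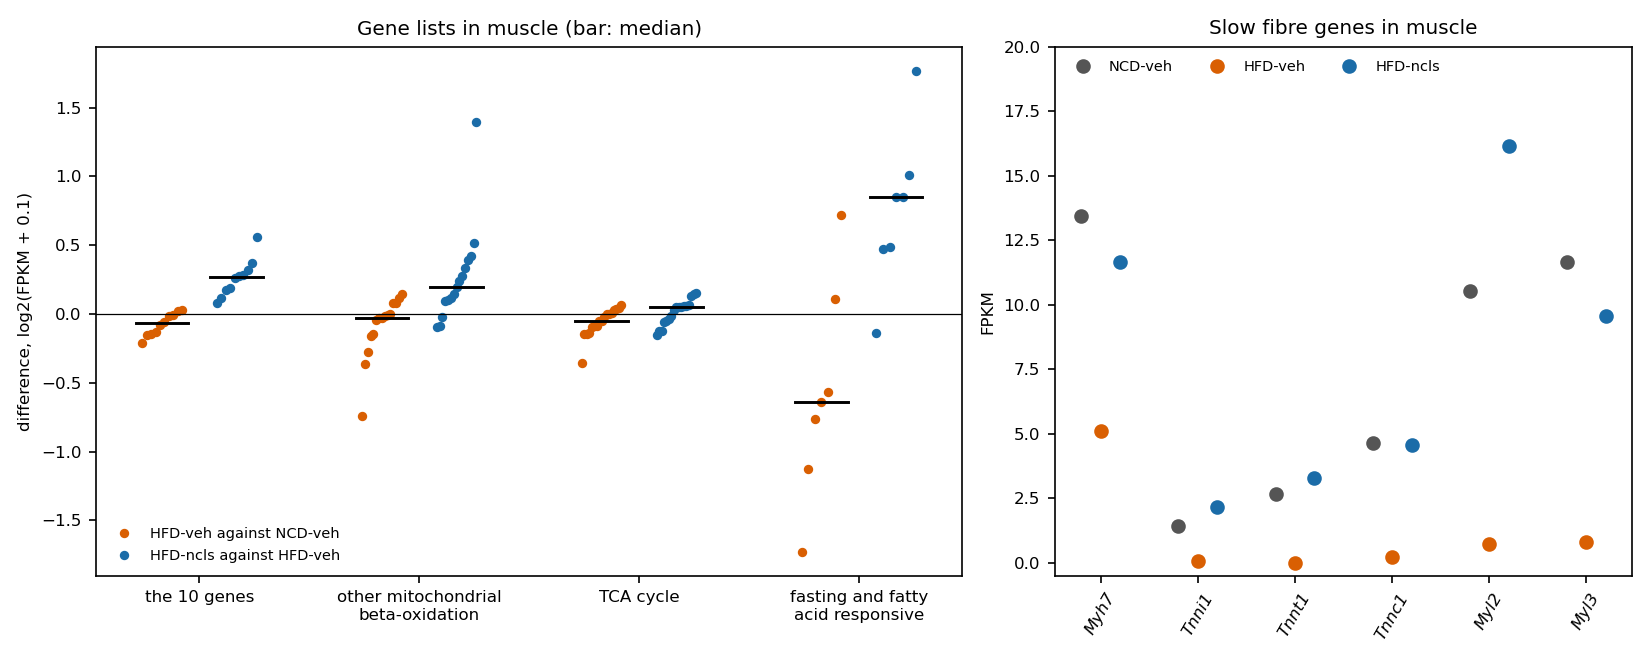
The left panel plots the muscle log2 differences of each gene in 4 lists for HFD-veh against NCD-veh and HFD-ncls against HFD-veh, with a bar at each median. The right panel plots the FPKM of 6 slow fibre genes in the 3 muscle libraries, where HFD-veh lies lowest for each gene, and the 10 members on the left have medians of -0.07 and 0.27 beside -0.64 and 0.85 for the fasting and fatty acid responsive genes.

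In BAT the diet comparison, rather than the treatment comparison, placed most members on one side. HFD-veh was above NCD-veh for 9 of 10 members, against 44.7% of all genes, with a median log2 difference of 0.27 beside -0.04 over all genes. The exception was Acadm at -0.04, and the largest difference was 0.44 for Cpt1b, followed by 0.42 for Hadh and 0.40 for Hadhb. None was past 1.4-fold, where 9.34% of all genes were higher and 8.23% lower. Between HFD-ncls and HFD-veh BAT, 4 of 10 were above 0, against 46% of all genes, with a median of -0.03 and a range from -0.23 (Hadha) to 0.17 (Acadl). None was past 1.4-fold, against 2.25% higher and 6.28% lower among all genes. The 10 skeletal muscle markers summed to 2009, 821 and 118 FPKM in BAT, and over 113 muscle-enriched genes the BAT libraries held 2.34%, 1.12% and 0.282% of the muscle level. That share came to at most 1.35% of the BAT level of a member (Cpt1b in NCD-veh).

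In liver, 8 of 10 members were higher in HFD-veh than in NCD-veh, against 54% of all genes, with a median of 0.24 beside 0.04 over all genes. Hadh was past 1.4-fold higher at 0.53 and Cpt1b past 1.4-fold lower at -0.90, where 13.3% of all genes were higher and 10.5% lower. Acadm and Acadl followed Hadh at 0.41 and 0.40. Between HFD-ncls and HFD-veh liver, 9 members were tested and 1 was above 0 (Acads at 0.33), against 52.4% of all genes, with a median of -0.11. None was past 1.4-fold, against 6.88% higher and 8.07% lower among all genes, and Etfdh at -0.44 and Acadm at -0.41 came closest. Cpt1b was under 1 FPKM in both libraries and was left out of that count. Skeletal muscle markers summed to 2.18, 63.6 and 3.15 FPKM in liver, and the matching share of the muscle level came to at most 0.0836 FPKM of a member.

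In WAT, 8 of 10 members were higher in HFD-veh than in NCD-veh, against 52.7% of all genes, with a median of 0.30 beside 0.03 over all genes. Cpt1b was past 1.4-fold higher at 1.83 and 0 were past 1.4-fold lower, where 16.3% of all genes were higher and 13% lower. Hadhb followed at 0.42 and Acadl at 0.37, and Hadh at -0.21 and Acadvl at -0.02 were lower. Between HFD-ncls and HFD-veh WAT only Cpt1b (0.26) was above 0, 1 of 10 against 58.5% of all genes, with a median of -0.14 beside 0.04 over all genes. None was past 1.4-fold, against 6.39% higher and 1.28% lower among all genes. Etfdh had the lowest difference, -0.27, and only 5.11% of all genes were below it. Liver markers summed to 7.66, 54.4 and 203 FPKM in WAT, and the liver share came to at most 0.998% of a member's WAT level (Acadvl in HFD-ncls). The muscle share of WAT came to 22.1%, 4.63% and 6.08% of the low Cpt1b level. The 6 macrophage markers, whose cells are known to gather in fat on a high-fat diet, summed to 639, 877 and 1102 FPKM in the same order. Lyz2 led these sums at 489, 551 and 747 FPKM, and the others differed less between the HFD libraries, with Csf1r at 64.8 and 65.2 FPKM. The part of these markers in the lower member levels of HFD-ncls was not tested.

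**Figure D5:**
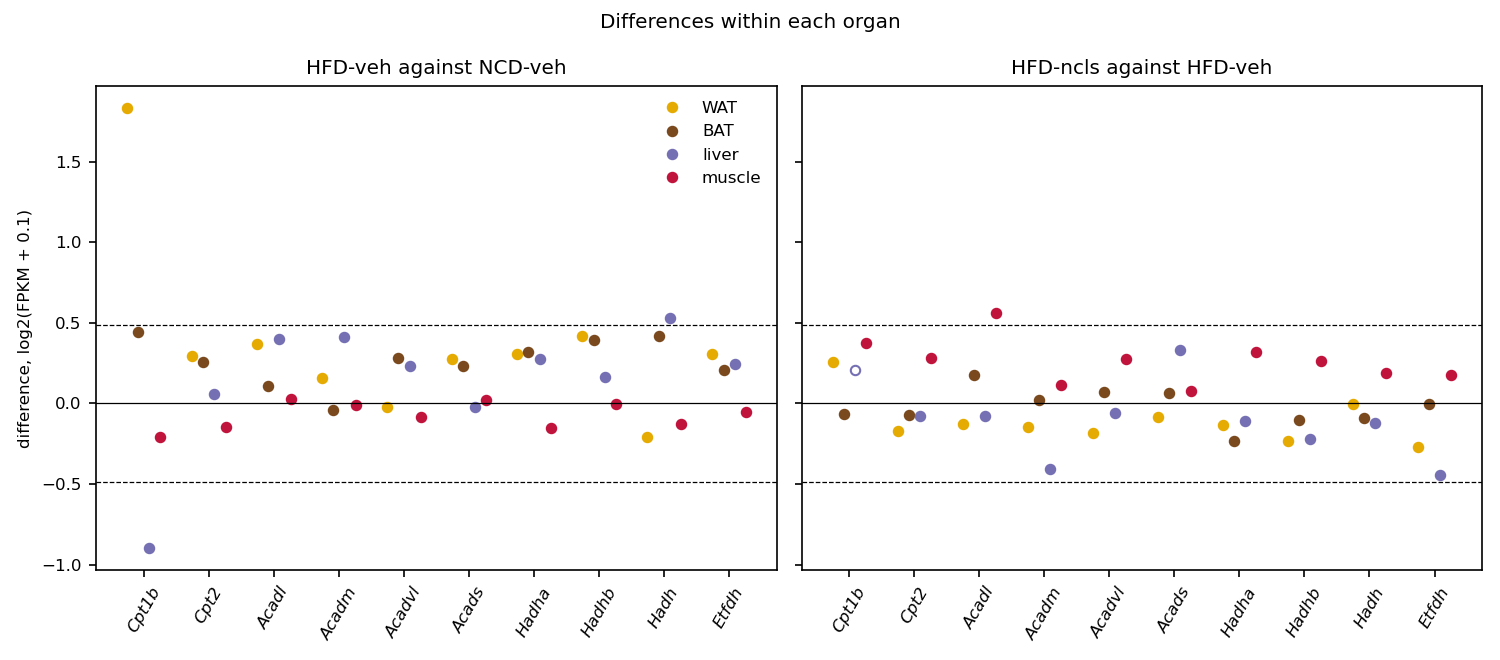
The log2 difference of each of the 10 genes is plotted for HFD-veh against NCD-veh (left) and HFD-ncls against HFD-veh (right) in the 4 organs, with dashed lines at 1.4-fold and an open point where both levels were under 1 FPKM. On the left most points of WAT, BAT and liver lie above 0 and those of muscle near or under it, and on the right the muscle points alone lie above 0 for all 10 genes.

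Set side by side, the HFD-ncls to HFD-veh medians of the members were -0.14 in WAT, -0.03 in BAT, -0.11 in liver and 0.27 in muscle, and the HFD-veh to NCD-veh medians were 0.30, 0.27, 0.24 and -0.07. HFD-veh was the highest of the organ's 3 libraries for 7 members in WAT, 6 in BAT, 8 in liver and 0 in muscle. HFD-ncls was the highest for 1, 3, 1 and 10. A share over all genes was taken only for HFD-ncls in muscle (42.7%), so the other counts describe the members alone. Whether the organs differ was not tested, since each median rests on 1 library per group and both comparisons within an organ share the HFD-veh library.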

How the data were processed

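RNA-seq libraries of 4 organs (WAT, BAT, liver, quadriceps) and 3 groups were grouped by the sample labels, 1 library each. Reads had been aligned to mm9 (TopHat) and RefSeq genes quantified (Cufflinks) by the authors, who deposited FPKM. No further scaling is stated. FPKM is not a count, and no test was run.

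Differences were taken on log2(FPKM + 0.1) for genes with at least 1 FPKM in either library, using Python 3.11.15, numpy 2.4.6 and pandas 2.3.3. The 1.4-fold threshold is the lower one that the study used for skeletal muscle, and it was applied here to every organ. Across organs the study required more than 2-fold, with limits on p-value and FDR. Genes named outside the 10 were, per list, the 2 with the largest muscle difference between HFD-ncls and HFD-veh, the closest profiles, Cpt1a, gene neighbours and all those past 1.4-fold where 5 or fewer. The members and lists were chosen with earlier results of these data known. Slow fibre genes, other genes shown beside them, Acaa2, Echs1, Ppara and Ppargc1a were named after their values were seen where no rule covers them. One list of genes is not reported here. Shares of another organ's RNA were medians over genes with a mean of at least 100 FPKM there, 20 times or more the median level elsewhere. Positions are GENCODE on mm9, and promoter windows are RefSeq on GRCm38.p6. The functions were tested on simulated data. Alternatives covered pseudocount, scaling, filter, threshold and subtraction of other-organ RNA, of which the adipocyte share and 1 scaling of the organ levels were added after the data were seen.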

Additional observations from a re-analysis of the deposited data

Results flagged for a closer look

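Cpt1b was the only member past 1.4-fold in opposite directions in different organs for the same comparison. Between HFD-veh and NCD-veh its log2 difference was 1.83 in WAT (2.04 against 0.501 FPKM) and -0.90 in liver (0.803 against 1.58 FPKM). Only about 120 and 30 fragments lay behind these levels in WAT and about 53 and 110 in liver, in the same order. The difference between the organs was not tested, since each value rests on 1 library per group. All 4 levels were low beside 91.7 FPKM or more in BAT and muscle. In WAT, Ucp1 was at 2.86, 2.38 and 3.92 FPKM (NCD-veh, HFD-veh, HFD-ncls), which is 0.371%, 0.309% and 0.530% of its BAT level. These shares of the BAT level of Cpt1b would be 0.682, 0.773 and 1.27 FPKM, or 136%, 37.9% and 51.4% of its WAT level. The estimate rests on 1 gene and exceeds the measured level in NCD-veh, so it is no usable share. Cidea, also named above as a brown fat gene, was at 2.92, 3.99 and 4.18 FPKM in WAT and did not follow Ucp1. The muscle share of the WAT libraries came to 22.1%, 4.63% and 6.08% of the Cpt1b level. In liver, the muscle share of HFD-veh came to 10.4% of the Cpt1b level. The part of these cells in the differences was not tested.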

How the results depend on the processing

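Of the values recomputed under the alternatives, 303 stayed within 0.1 on the log2 scale for a median or single gene, or within 1.5 times for a count or percent, and 15 moved further. No called value changed sign. In muscle, the HFD-ncls to HFD-veh median of 0.27 and the HFD-veh to NCD-veh median of -0.07 stayed within 0.1 under every alternative, though that tolerance exceeds the latter median and its count above 0 went from 2 to 0 with the median ratio rescaling. The HFD-ncls to NCD-veh median went from 0.15 to 0.08 with that rescaling, with 9 of 10 above 0. Among all genes with at least 5 FPKM, the share past 1.4-fold was 9.26% in place of 13.9% for HFD-ncls against HFD-veh muscle, and 8.67% in place of 13.3% for HFD-veh against NCD-veh. In HFD-ncls against HFD-veh muscle, the count of members past 1.4-fold higher went from 1 to 0 at a threshold of 2-fold. BAT remained highest for 10 of 10 members under both rescalings. Rescaling all libraries to 1 common sum moved the liver HFD-veh to NCD-veh median from 0.24 to 0.34, its count past 1.4-fold higher from 1 to 3, and that of BAT from 0 to 2. No paired analysis was possible because each group holds 1 library, and no value can be checked against a replicate. Depth is known only approximately, and no error can be given for small differences such as 0.08 for Acads in muscle.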
